A study of Rattus norvegicus with 17 samples.

Results

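The genes described here are the rat zinc finger genes whose names join Zfp to a number. Members were the entries of the deposited count table that were annotated as protein-coding, carried such a name and had a summed count of at least 500 over all 17 libraries. They numbered 149 of 236 protein-coding Zfp entries, in a table of 32495 named entries. The sum over all libraries chose them, so their total level is not a result. The count rule used no difference between groups, but the family was chosen with earlier results of these data known. Just inside the minimum stood Zfp879 with 506 counts and Zfp316 with 512, and just outside it Zfp366 with 484 and Zfp329 with 472. The study measured RNA from rat gastrocnemius, a calf muscle, in rats that bore a tumor and were given chemotherapy, rats that bore a tumor without chemotherapy, and healthy rats. The titles give the control diet for all 3 groups. The labels name neither the tumor, the chemotherapy agent, the strain nor the age. There were 6 chemotherapy samples after a near-identical pair was summed, 5 tumor samples and 5 healthy samples. Nothing in the labels ties each library to a separate rat, so p-values measure only the spread between these samples.

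Most Zfp proteins are transcription factors that grip DNA with a row of fingers, each folded around a zinc ion. Many carry a KRAB domain, which recruits the co-repressor Trim28 and, through it, enzymes that lay down repressive histone marks, often over mobile elements. The name is a numbering scheme and not a function: it also covers proteins that bind RNA, act as ubiquitin ligases, help build ribosomes or steer fibroblasts toward fat. KRAB zinc finger genes arose by duplication and share long stretches of near-identical sequence. The counting program is not given in the sources used here, so reads shared between close copies may have been split or lost, and the values of such members are uncertain.

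The promoters of 6 of the genes called below are shown because 3 of them (Zfp110, Zfp397, Zfp260) are the called-higher members with the smallest adjusted p that have a single promoter entry, and the other 3 (Zfp319, Zfp609, Zfp282) are their counterparts among the called-lower members. The sequences are RefSeq's for the GRCr8 build and run from 250 bases before to 50 bases after the annotated start, on the gene's strand, 5′ to 3′. They lie at chr1:82517803-82518102 on the plus strand for Zfp110, chr18:15516587-15516886 on the plus strand for Zfp397 and chr1:94469611-94469910 on the plus strand for Zfp260. The others lie at chr19:9708631-9708930 on the plus strand for Zfp319, chr8:75213037-75213336 on the minus strand for Zfp609 and chr4:78215690-78215989 on the plus strand for Zfp282. Capitals mark every match, on either strand, to 1 of 8 searched motifs: the Sp1 box GGGCGG, the CCAAT box CCAAT, the TATA box TATAAA, the ETS site CCGGAAG, the NRF1 sequence GCATGCGC, the YY1 site AAGATGGC, the cyclic AMP element TGACGTCA and the Zfp143 core ACTACAA.
Zfp110: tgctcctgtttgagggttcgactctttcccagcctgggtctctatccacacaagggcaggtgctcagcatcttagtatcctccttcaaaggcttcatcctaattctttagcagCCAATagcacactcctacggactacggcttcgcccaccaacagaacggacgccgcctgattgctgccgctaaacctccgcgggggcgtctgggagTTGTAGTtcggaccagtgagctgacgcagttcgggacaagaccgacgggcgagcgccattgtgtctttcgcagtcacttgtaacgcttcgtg
Zfp397: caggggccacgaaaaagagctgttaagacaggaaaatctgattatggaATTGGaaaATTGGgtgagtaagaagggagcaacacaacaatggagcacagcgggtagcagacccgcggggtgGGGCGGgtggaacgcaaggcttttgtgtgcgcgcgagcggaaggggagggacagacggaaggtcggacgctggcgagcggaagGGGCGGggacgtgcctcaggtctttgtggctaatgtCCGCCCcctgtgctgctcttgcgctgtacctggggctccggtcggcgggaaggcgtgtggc
Zfp260: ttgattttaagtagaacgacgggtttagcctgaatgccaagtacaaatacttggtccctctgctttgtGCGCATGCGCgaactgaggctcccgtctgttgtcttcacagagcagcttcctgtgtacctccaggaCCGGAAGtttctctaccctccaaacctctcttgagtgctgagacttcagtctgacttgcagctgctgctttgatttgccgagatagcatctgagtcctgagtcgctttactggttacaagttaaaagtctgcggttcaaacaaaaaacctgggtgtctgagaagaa
Zfp319: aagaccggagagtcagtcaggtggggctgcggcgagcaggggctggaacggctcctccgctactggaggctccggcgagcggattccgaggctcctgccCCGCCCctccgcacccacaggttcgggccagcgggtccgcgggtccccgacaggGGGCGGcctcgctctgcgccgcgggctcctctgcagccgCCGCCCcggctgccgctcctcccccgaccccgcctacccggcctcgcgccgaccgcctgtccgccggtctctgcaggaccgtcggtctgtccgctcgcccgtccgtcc
Zfp609: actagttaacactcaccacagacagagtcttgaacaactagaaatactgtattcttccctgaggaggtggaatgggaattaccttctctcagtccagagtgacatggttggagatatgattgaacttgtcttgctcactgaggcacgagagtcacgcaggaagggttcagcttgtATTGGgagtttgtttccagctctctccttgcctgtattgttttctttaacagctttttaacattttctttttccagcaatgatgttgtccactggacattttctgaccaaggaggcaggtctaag
Zfp282: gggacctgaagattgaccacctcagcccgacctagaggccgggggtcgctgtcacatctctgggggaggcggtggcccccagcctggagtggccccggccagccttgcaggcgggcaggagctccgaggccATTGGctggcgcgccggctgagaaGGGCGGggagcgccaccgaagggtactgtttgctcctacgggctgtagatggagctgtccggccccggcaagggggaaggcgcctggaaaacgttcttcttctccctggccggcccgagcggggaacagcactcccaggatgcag
The Zfp110 promoter held a CCAAT box and a Zfp143 core, and that of Zfp260 held an ETS site and an NRF1 sequence whose matches on the strands overlap. The Zfp319 promoter was the richest of the 6 in G and C, at 76.7%, and its only motif was the Sp1 box. The Zfp609 promoter was the poorest, at 43.3%, with 2 CpG dinucleotides.

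Over the 109 members with a single promoter entry, the median GC content was 60.0%, against 55.7% for the promoters of all 17545 protein-coding genes of the same length. Their median number of CpG dinucleotides was 20, against 12. A further 12 members had several entries, which were not used, and 28 had none. The ETS site stood in 20.2% of the members' promoters, against 11.4% of the protein-coding ones and 9.49% of all 24206 promoters. The Zfp143 core stood in 11%, against 3.69% of protein-coding and 3.42% of all promoters. The YY1 site stood in 8.26% of members' promoters, against 4.05% of protein-coding and 3.58% of all promoters, and the NRF1 sequence in 6.42%, against 3.25% and 2.76%. The TATA box stood in 9.17% of members' promoters, against 13.3% of protein-coding and 14.3% of all promoters. The remaining motifs, the CCAAT box at 40.4% against 38.4% of protein-coding promoters and the cyclic AMP element at 2.75% against 2.23%, differed less; over all promoters they stood at 37.8% and 1.91%. Among members called higher, 6 of 14 promoters (42.9%) held an Sp1 box. Among those called lower, 7 of 8 (87.5%) held it, as did 53.2% of all members' promoters, 43.5% of protein-coding promoters and 35.9% of all promoters. These shares are descriptions of letters in a window, with no test, and a match is not a shown binding site.

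The libraries held 3020821 to 19965891 counts on named genes after the summing, and the CPM values (read counts scaled to a common library size) below use TMM, edgeR's correction for library composition. CPM is not divided by gene length, so levels are compared between samples and not between genes. The tissue label fitted the markers: 9 listed genes of the skeletal muscle fiber summed to 175000 to 216000 CPM in the chemotherapy samples, 176000 to 245000 CPM in the tumor samples and 216000 to 316000 CPM in the healthy ones. The alignment names that stand above the column names end in MB or VM, with no meaning given. MB stood on healthy libraries 1 to 4 and on chemotherapy library 11, and VM on all others. Libraries also differed in composition. Small noncoding RNA genes took 0.688% to 1.4% of counts in the chemotherapy samples, 0.813% to 2.15% in the tumor samples and 0.806% to 3.6% in the healthy samples, where libraries 1, 3 and 4 stood highest. The difference between chemotherapy and healthy samples had an exact two-sided permutation p of 0.026 (adjusted p = 0.113 over 39 tests of sample values).

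Together the members took 0.422% ± 0.0443 of all counts in the chemotherapy samples (SD, n = 6), 0.389% ± 0.0749 in the tumor samples and 0.304% ± 0.0669 in the healthy samples (SD, n = 5 each). A single gene weighed heavily in this share. Zfp106 held 104429 of the members' 455693 counts, or 22.9%, a share of reads that is not corrected for length. It was followed by Zfp91 with 4.7%, Zfp622 with 2.21%, Zfp407 with 2.0% and Zfp638 with 1.77%, while the median member held 1667 counts. Without Zfp106 the members' share was 0.311% in the chemotherapy samples, 0.291% in the tumor samples and 0.242% in the healthy samples. These shares are of raw counts, with no correction for library composition. The 20 most abundant genes took on average 35.6% of counts in the chemotherapy samples, 35.6% in the tumor samples and 40.2% in the healthy samples. The part of this in the members' share was not tested.

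In muscle of rats with a tumor and chemotherapy, set against healthy muscle, 18 members rose, 9 fell and 122 did not pass the test. Calls were made where the adjusted p fell below 0.05 in edgeR's quasi-likelihood test, with Benjamini-Hochberg adjustment over 11856 genes. The called-higher members made up 12.1% of the 149, beside 7.3% of all genes tested, and the called-lower members 6.04%, beside 6.41% of all genes. The members' log2 fold changes had a median of 0.13 (quartiles −0.34 and 0.57), against a median of −0.02 over all genes tested, and 85 were positive and 64 negative. Of protein-coding genes that met the same count minimum, 8.06% were called higher and 7.22% lower, and their median was also −0.02. All 149 members passed the filter on low counts. Because the family was chosen with earlier results known, these shares and medians beside those of all genes are a description and not a test. Scaling by total counts alone gave 29 higher and 4 lower, or 19.5% and 2.68% of members beside 14.1% and 2.94% of all genes. That scaling moved the median of all genes to 0.12 and that of the members to 0.26.

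These calls, like those of the whole table, rested on particular libraries and on how library differences were treated. No member was called, in either direction, when any single one of healthy libraries 1, 3 and 4 or chemotherapy libraries 13, 14 and 15 was left out, and no other gene of the table was called in those fits. The smallest adjusted p of a member then lay between 0.0571 and 0.0836 in edgeR's test. Leaving out healthy library 2 gave 37 higher and 23 lower (24.8% and 15.4% of members), beside 16.9% and 14.8% of all genes. Leaving out chemotherapy library 11 gave 30 higher and 18 lower (20.1% and 12.1%), beside 12.7% and 11.7% of all genes. By edgeR, no member was called with the alignment-name suffix as a term (smallest adjusted p = 0.588) or with 1 surrogate variable (0.63). The same held without healthy libraries 1, 3 and 4 together (0.899). In these fits, too, no gene of the table was called. The 18 kept positive and the 9 kept negative log2 fold changes in them, with medians nearer to 0. Among VM libraries alone, where healthy library 5 is the only healthy sample, the signs were also kept, with medians of 0.89 and −0.5. With the surrogate variable, the median of the 18 was 0.20, against 1.18 without it, and that of the 9 was −0.19, against −0.60. That variable was 0.284, 0.387 and 0.537 in healthy libraries 1, 3 and 4, and −0.139 and 0.0585 in healthy libraries 2 and 5. In the chemotherapy samples it was 0.0792 in library 11 and −0.308 to −0.0735 in the others. It thus ran partly along the groups, and a fit that includes it cannot tell library differences from the group difference.

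**Figure D1:**
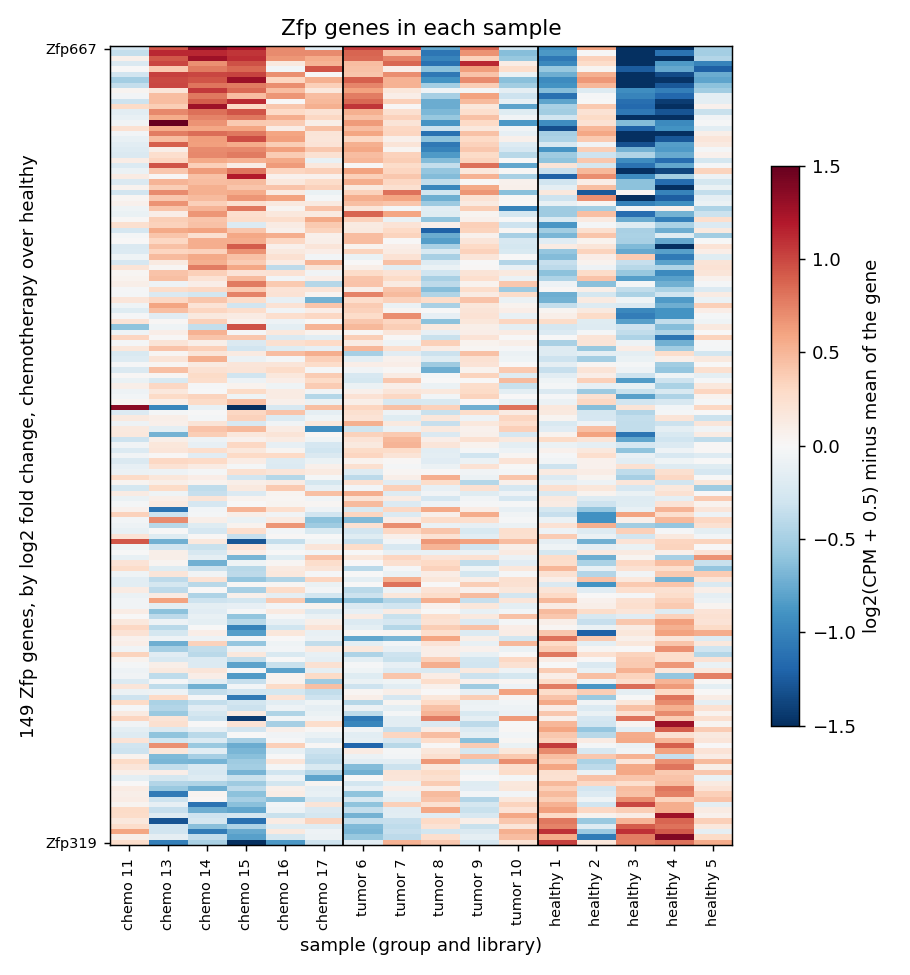
Each row is 1 of the 149 Zfp genes, ordered by log2 fold change between tumor with chemotherapy and healthy muscle, and each column is 1 sample. Color gives log2(CPM + 0.5) minus the gene's mean over samples. Healthy library 2 looks more like the tumor samples than healthy libraries 3 and 4 do in the upper rows, and tumor libraries 8 and 10 lie on the side of the healthy samples.

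Among the members called higher, Zfp110, whose mouse protein binds a neurotrophin receptor, had the smallest p. Its CPM was 20.9 at the lowest, 25.5 at the median and 42.8 at the highest in the chemotherapy samples, 30.9, 22.9, 19.5, 19.8 and 18.3 in the tumor samples, and 12.8, 17.6, 10.4, 9.66 and 13.9 in the healthy samples. Every chemotherapy and tumor sample lay above every healthy one. The log2 fold change over healthy was 1.20 ± 0.22 (SE) for tumor with chemotherapy (edgeR adjusted p = 0.0261). Groups that did not overlap, with the chemotherapy samples higher, were seen for Zfp110 and Zfp148 alone of the 149, beside 2.02% of all genes tested. Zfp148, a factor that binds GC-rich promoters, ranged from 32.8 to 50.2 CPM with a median of 35.9 in the chemotherapy samples. Its tumor samples had 42.9, 41.9, 21.2, 34.5 and 31.5 CPM and its healthy samples 28.9, 31.9, 15.3, 16.3 and 29.5 CPM. The gap between the chemotherapy and healthy samples was narrow, and the log2 fold change was 0.66 ± 0.21 (edgeR adjusted p = 0.0464).

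The largest called increases were those of Zfp386 and Zfp62. Zfp386 ranged from 8.5 to 24.8 CPM with a median of 21.0 in the chemotherapy samples, and had 20.5, 15.1, 4.94, 17.8 and 6.92 CPM in the tumor samples and 5.86, 11, 2.01, 4.86 and 7.61 CPM in the healthy samples. Chemotherapy library 11 was the low sample of its group, below healthy library 2. The log2 fold change was 1.71 ± 0.41 (edgeR adjusted p = 0.0276), a 3.26-fold difference. Zfp62 ranged from 15.7 to 36.4 CPM with a median of 26.3 in the chemotherapy samples, and had 27, 25.2, 7.22, 18.9 and 9.86 CPM in the tumor samples and 6.8, 18.9, 3.73, 3.44 and 10.8 CPM in the healthy samples. The same libraries stood out: tumor libraries 8 and 10 were low, healthy library 2 was high. Its log2 fold change was 1.69 ± 0.43 (edgeR adjusted p = 0.029). Zfp397 averaged 9.11 ± 2.75 CPM in the chemotherapy samples (SD, n = 6), 7.2 ± 2.23 in the tumor samples and 3.66 ± 1.65 in the healthy samples (SD, n = 5 each), a log2 fold change over healthy of 1.38 ± 0.30 (edgeR adjusted p = 0.0261). Zfp260, known in rodent heart as a transcriptional regulator, averaged 14.2 ± 2.68 CPM in the chemotherapy samples, 11.7 ± 4.55 in the tumor samples and 6.42 ± 2.77 in the healthy samples, a log2 fold change of 1.18 ± 0.28 (edgeR adjusted p = 0.0271). The names Zfp260 and Zfp84 each also stand on another entry of the table.

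The other members called higher had log2 fold changes over healthy of 0.61 to 1.53. Zfp560 (1.53), Zfp606 (1.37), Zfp612 (1.37), Zfp68 (1.18), Zfp949 (0.80), Zfp180 (0.78) and Zfp111 (0.61) have no role given here. Zfp131, which carries a BTB domain for pairing with other proteins, had 1.04. Zfp667 had the largest log2 fold change of all members, 1.77 ± 0.61, but missed the threshold (edgeR adjusted p = 0.0567). Its level varied widely, with 4.49 to 15 CPM in the chemotherapy samples, 2.94 to 11.7 CPM in the tumor samples and 0.203 to 8.51 CPM in the healthy samples. Zfp105, at 1.04 ± 0.34 with an edgeR adjusted p of 0.0505, also missed it.

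**Figure D2:**
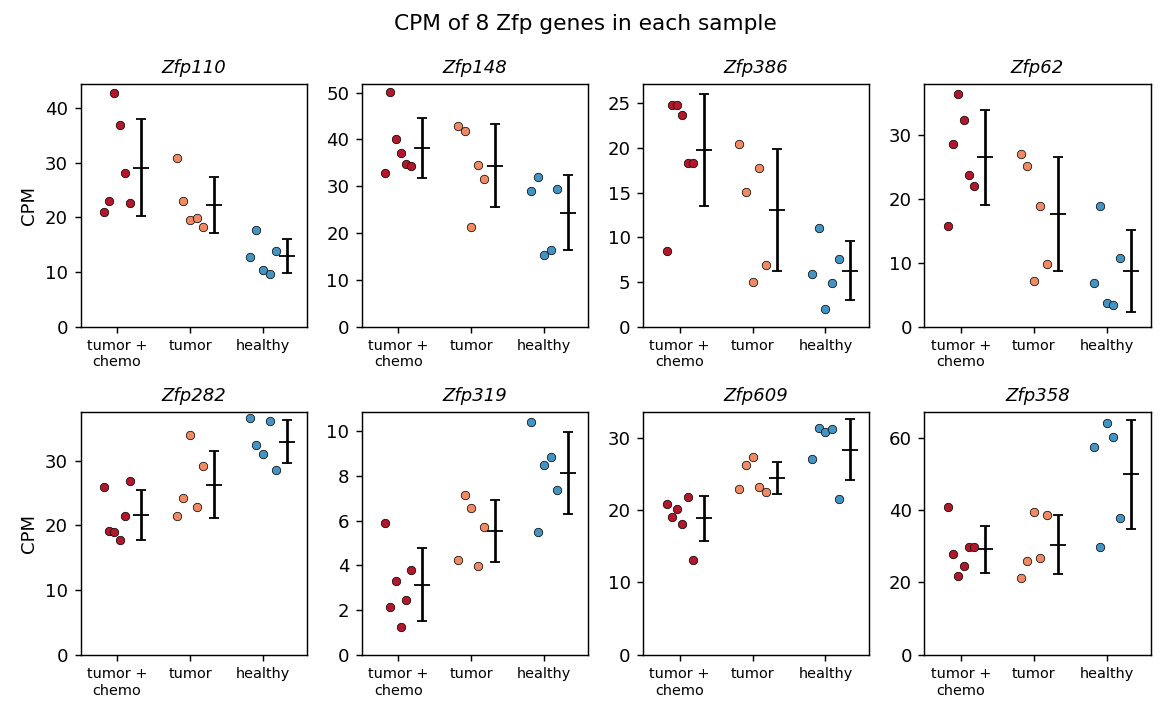
Points are CPM of 8 called Zfp genes in each sample, with tumor with chemotherapy, tumor and healthy samples from left to right and the bar giving mean ± SD beside the points. The upper 4 genes were called higher and the lower 4 called lower in chemotherapy samples against healthy ones. In Zfp110, Zfp148 and Zfp282 the chemotherapy and healthy points do not overlap.

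Among the members called lower, Zfp319 had the largest change. Its CPM was 1.25 at the lowest, 2.88 at the median and 5.91 at the highest in the chemotherapy samples, 4.24, 7.15, 6.55, 3.97 and 5.71 in the tumor samples and 10.4, 5.49, 8.5, 8.85 and 7.37 in the healthy samples. Chemotherapy library 11 alone of its group reached the lowest healthy sample. The log2 fold change was −1.26 ± 0.29 (edgeR adjusted p = 0.0261). Zfp282, whose human counterpart represses a retroviral repeat, was the only member whose chemotherapy samples all lay below the healthy ones, beside 1.97% of all genes tested. It ranged from 17.8 to 26.8 CPM with a median of 20.2 in the chemotherapy samples, and had 21.4, 24.2, 33.9, 22.9 and 29.1 CPM in the tumor samples and 36.6, 32.4, 31.1, 36.1 and 28.6 CPM in the healthy samples. Its log2 fold change was −0.60 ± 0.15 (edgeR adjusted p = 0.029). Zfp609, which binds a cohesin loader in mouse neural progenitors, averaged 18.8 ± 3.07 CPM in the chemotherapy samples, 24.4 ± 2.17 in the tumor samples and 28.4 ± 4.23 in the healthy samples (SD, n = 6, 5 and 5), a log2 fold change of −0.59 ± 0.14 (edgeR adjusted p = 0.0279). Zfp358 averaged 29.2 ± 6.55 CPM in the chemotherapy samples, 30.4 ± 8.18 in the tumor samples and 49.9 ± 15.1 in the healthy samples, a log2 fold change of −0.77 ± 0.21 (edgeR adjusted p = 0.032). The other 5, Zfp574 (−0.66), Zfp691 (−0.61), Zfp777 (−0.60), Zfp496 (−0.51) and Zfp532 (−0.41), changed by less. Zfp496 is known in mouse as a partner of the histone methyltransferase Nsd1.

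In tumor muscle without chemotherapy, set against healthy muscle, edgeR called no member and no other gene. The members' median log2 fold change was 0.15, against 0.01 over all genes, with 93 positive and 56 negative. At an unadjusted p below 0.05, 24 members were higher and 9 lower, beside 8.88% and 9.12% of all genes tested. The DESeq2 Wald test called no member either, and 17 genes higher and 23 lower over the table. Zfp110 had a log2 fold change of 0.81 ± 0.22, Zfp397 of 1.03 ± 0.31, Zfp560 of 1.45 ± 0.45 and Zfp358 of −0.72 ± 0.22, each with an edgeR adjusted p of 0.211, the smallest among members. Zfp260 (0.89), Zfp68 (0.92), Zfp496 (−0.48), Zfp511 (−0.85), Zfp771 (−0.84) and Zfp213 (−0.48) followed. In Zfp110 the tumor and healthy samples did not overlap, the single member of that kind, beside 0.439% of all genes tested, and no member did so in the lower direction, beside 0.557%. Without healthy library 2, 12 members were called higher and 2 lower (8.05% and 1.34%), beside 2.04% and 2.16% of all genes. Both comparisons use the same 5 healthy samples, so they are not independent of each other.

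**Figure D3:**
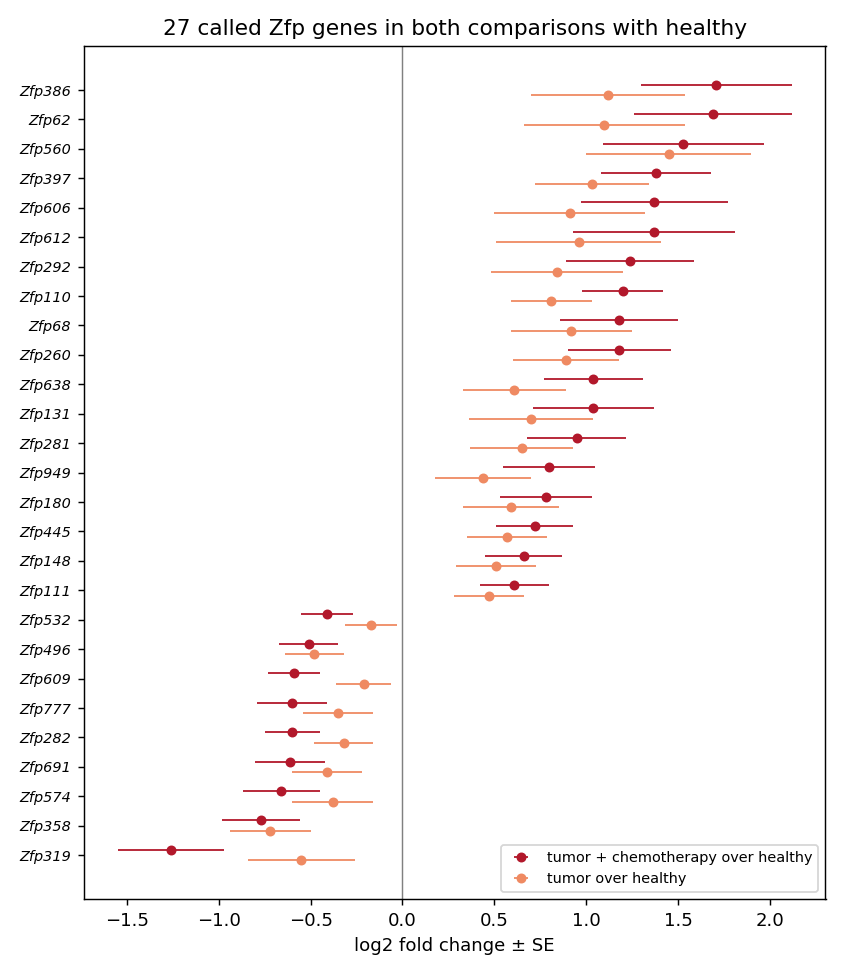
Log2 fold changes with SE bars of the 27 Zfp genes called in chemotherapy samples against healthy ones. Dark red marks give tumor with chemotherapy over healthy and orange marks tumor over healthy, with genes ordered by the dark red marks. The 2 sets of marks share the healthy samples, and none of the orange ones passed the test.

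Chemotherapy against tumor muscle compares the animals that differ in treatment while both bear a tumor. By edgeR no member was called there, nor any other gene, and the DESeq2 Wald test called no member, and 2 genes higher and 7 lower over the table. The members' median log2 fold change was −0.00 and the range was −0.71 to 0.59, with 72 positive and 77 negative. At an unadjusted p below 0.05 no member was higher, beside 1.97% of all genes, and 5 were lower, beside 3.81%. Those were Zfp609 (−0.37 ± 0.14), Zfp467 (−0.53 ± 0.21), Zfp212 (−0.39 ± 0.16), Zfp319 (−0.71 ± 0.29) and Zfp513 (−0.51 ± 0.24), all with an edgeR adjusted p of 0.778. In Zfp609 the chemotherapy samples all lay below the tumor samples, the single such member, beside 0.295% of all genes tested. On the other side, Zfp692 (0.45), Zfp110 (0.38), Zfp869 (0.34), Zfp105 (0.59) and Zfp133 (0.25) had the smallest p and were not called.

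Among the members called higher, the same libraries tended to stand at the ends of their groups. The median CPM over the 18 called-higher members was 15.7 in chemotherapy library 11 and 21.8 to 31.8 in the other chemotherapy libraries. It was 25.8, 22.9, 10.4, 19.4 and 12.5 in tumor libraries 6 to 10, and 8.31, 19.1, 6.69, 6.35 and 11.4 in healthy libraries 1 to 5. Chemotherapy library 11 was the lowest of its group for 14 of the 18 genes, tumor library 8 for 15, and healthy library 2 was the highest of its group for 17. Over all 149 members the tendency was weaker. Chemotherapy library 11 was the lowest for 49 and the highest for 28, and tumor library 8 the lowest for 56 and the highest for 35. Healthy library 2 was the highest for 53 and the lowest for 50. The members' share of all counts was still the lowest of its group in chemotherapy library 11 (0.358%) and in tumor library 8 (0.289%). In healthy library 2 that share was the highest of its group (0.394%). The share of small noncoding RNA ran the other way. It was 1.4% in chemotherapy library 11 and 2.15% in tumor library 8, each the highest of its group, and 0.806% in healthy library 2, the lowest of its group. The 9 called-lower members had medians of 17.8 to 21.6 CPM in the chemotherapy libraries, 21.2 to 27.3 in the tumor libraries and 23.0 to 34.9 in the healthy libraries. Long intergenic noncoding RNA genes took 0.45% of counts in the chemotherapy samples, 0.405% in the tumor samples and 0.245% in the healthy samples. The part of library composition in these differences was not tested.

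**Figure D4:**
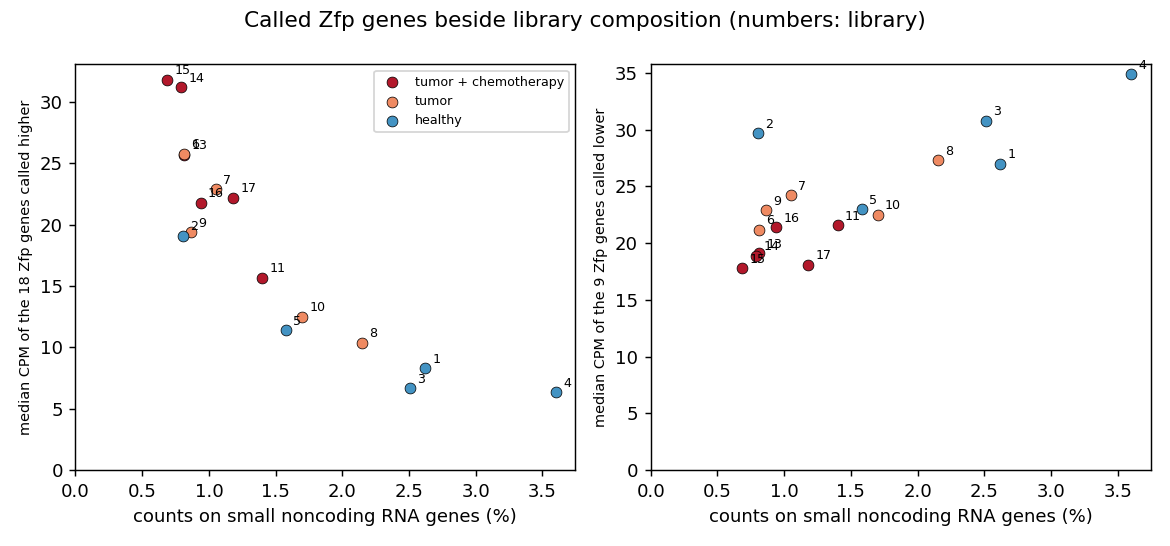
Each point is 1 sample, numbered by library. The horizontal axis gives the percent of counts on small noncoding RNA genes, and the vertical axis the median CPM of the 18 Zfp genes called higher (left) or the 9 called lower (right). Healthy libraries 1, 3 and 4 lie at the right of both plots, at 2.51% to 3.6%, and healthy library 2 lies at 0.806%, among the chemotherapy and tumor samples.

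The members differed in how much they varied between samples of 1 group. The within-group SD on the log2 scale had a median of 0.361 over the members, 0.489 over those called higher and 0.301 over those called lower, and 0.350 over all genes tested. Zfp384 (0.14) and Zfp672 (0.144) were the steadiest members, and Zfp667 (1.01) varied most. Zfp384 averaged 25 ± 2.1 CPM in the chemotherapy samples, 24.7 ± 1.91 in the tumor samples and 26.5 ± 3.2 in the healthy samples, with a log2 fold change over healthy of −0.09 ± 0.12.

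By role, the members that act on RNA or protein rather than on promoters held 12 genes, of which Zfp638 alone rose and none fell, with a median log2 fold change of 0.42 in chemotherapy against healthy muscle. The 1 of 12 (8.33%) stands beside 7.3% of all genes tested called higher. Zfp638 is an RNA- and DNA-binding protein that silences incoming viral DNA in human cells and promotes fat cell formation in mouse. It averaged 93.4 ± 26.2 CPM in the chemotherapy samples, 69.1 ± 20.6 in the tumor samples and 45.6 ± 19.5 in the healthy samples, a log2 fold change of 1.04 ± 0.27 (edgeR adjusted p = 0.0298). Zfp106, an RNA-binding protein needed in mouse for the upkeep of motor neurons and muscle, had 805 to 1300 CPM with a median of 1110 in the chemotherapy samples, 1200, 1240, 493, 959 and 832 CPM in the tumor samples and 665, 1320, 238, 348 and 751 CPM in the healthy samples. Healthy library 2 had the highest value of all samples, and the groups overlapped widely. Its log2 fold change of 0.69 ± 0.33 did not pass (edgeR adjusted p = 0.14). The ubiquitin ligase Zfp91 had 0.94 ± 0.38 (adjusted p = 0.0844), the ribosome maturation factor Zfp622 had 0.57 ± 0.26 (0.127) and the ubiquitin ligase Zfp598, which marks stalled ribosomes, had −0.19 ± 0.15 (0.367), all by edgeR. Zfp36, or tristetraprolin, which speeds the decay of AU-rich mRNAs, averaged 9.39 ± 5.38 CPM in the chemotherapy samples, 12.3 ± 3.55 in the tumor samples and 10.2 ± 2.88 in the healthy samples. Its log2 fold change was −0.07 ± 0.31. The mRNA decay partners of this family, 14 genes with Zfp36l1, Zfp36l2 and the Ccr4-Not and decapping subunits among them, had a median of 0.26 and none was called.

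Of 13 chromatin and promoter factors, 3 rose and 1 fell (23.1% and 7.69%, beside 7.3% and 6.41% of all genes tested), with a median log2 fold change of 0.08. Besides Zfp148, those that rose were Zfp292 (1.24 ± 0.35), first described in rat as a factor of the growth hormone promoter, and Zfp281 (0.95 ± 0.27), a regulator of mouse embryonic stem cells. The edgeR adjusted p was 0.0342 for Zfp292 and 0.0348 for Zfp281. Zfp532 fell by 0.41 on the log2 scale, with an edgeR adjusted p of 0.0495, just inside the threshold. It forms a chromatin complex with Zfp592 and Zfp687, which had −0.46 ± 0.18 and −0.47 ± 0.19 and missed the threshold at edgeR adjusted p values of 0.0827 and 0.083. The promoter factor Zfp143 had 0.41 ± 0.23, and Zfp410, a dedicated activator of Chd4, had 0.08 ± 0.13. Zfp445, which guards imprinted genes in mouse and human, rose by 0.72 ± 0.21 (edgeR adjusted p = 0.0371). It averaged 28.3 ± 5.11 CPM in the chemotherapy samples, 25.5 ± 6.07 in the tumor samples and 17.4 ± 5.45 in the healthy samples.

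None of the 6 members linked to mesenchymal or fat lineages was called, and 5 had negative log2 fold changes in chemotherapy against healthy muscle, with a median of −0.33. The preadipocyte factor Zfp423 had −0.23 ± 0.17, Zfp521, which restrains it, −0.07 ± 0.14, and the brown fat factor Zfp516 −0.44 ± 0.18. Zfp467 had −0.57 ± 0.21, Zfp703 −0.65 ± 0.26 and Zfp503 0.19 ± 0.40. Of 9 listed fibroblast and fibro-adipogenic markers, 6 fell in the same comparison (66.7%, beside 6.41% of all genes tested). Their summed level was 2400 to 11000 CPM in the chemotherapy samples, 2960 to 13200 CPM in the tumor samples and 4820 to 14500 CPM in the healthy samples, with no listed gene at 0. The exact two-sided permutation p of that sum between chemotherapy and healthy samples was 0.0823 (adjusted p = 0.214 over 39 tests). Of 6 pericyte and smooth muscle markers, 4 fell (66.7%). Their sums were 195 to 284 CPM in the chemotherapy samples, 285 to 425 CPM in the tumor samples and 321 to 392 CPM in the healthy samples. For that sum the exact two-sided permutation p was 0.00433, the smallest that 6 against 5 samples allow (adjusted p = 0.0563). The summed muscle fiber markers given above had the same exact p and adjusted p, also lower in the chemotherapy samples. Of the 9 fiber genes, 3 were called lower (33.3%) and none higher, with 3 log2 fold changes positive and 6 negative. At an unadjusted edgeR p below 0.05, 2 of them were higher and 4 lower. No adipocyte marker was called, at sums of 15.9 to 211, 11 to 104 and 5.1 to 29.1 CPM in the chemotherapy, tumor and healthy samples. All 4 tested adipocyte markers had positive log2 fold changes in chemotherapy against healthy muscle, with a median of 1.89. Of these, 2 had an unadjusted edgeR p below 0.05. The exact two-sided permutation p of the adipocyte sum was 0.0996 (adjusted p = 0.243). In bulk muscle, fewer cells of a type and less RNA per cell cannot be told apart, and the part of cell makeup in the members' values was not tested.

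**Figure D5:**
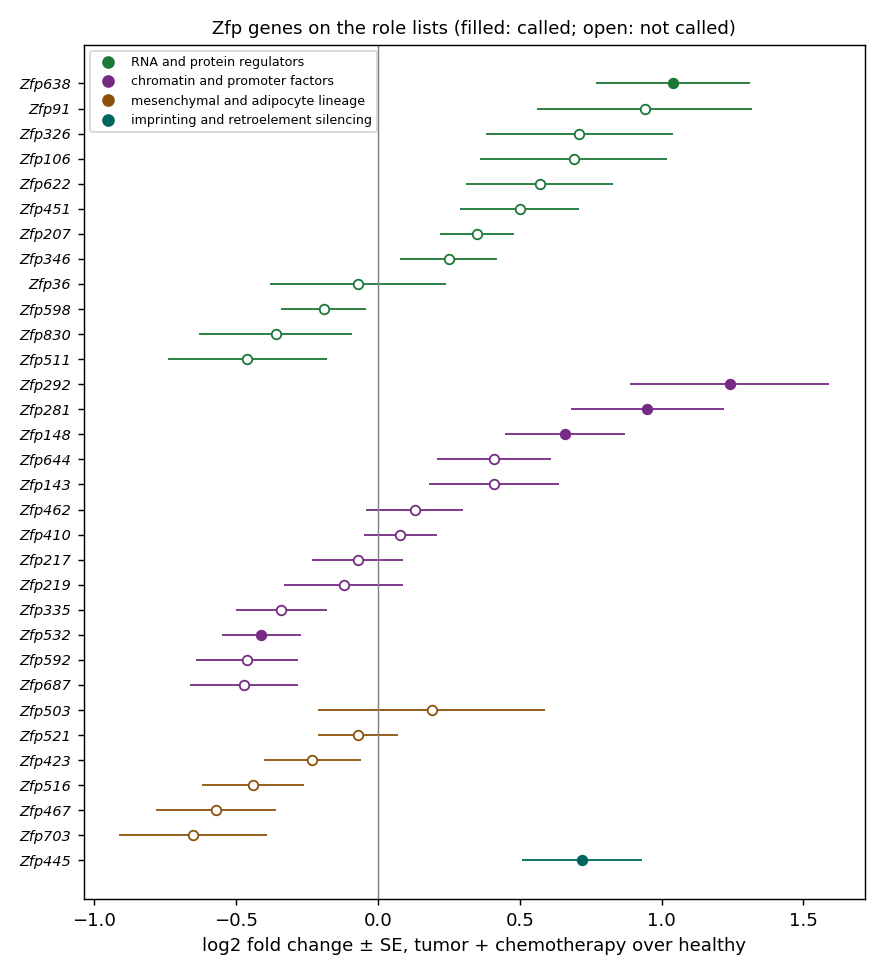
Log2 fold changes with SE bars, tumor with chemotherapy over healthy, for the 32 Zfp genes on the role lists, grouped and colored by role. Filled circles passed the test. In the mesenchymal and adipocyte group all 6 circles are open.

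The machinery through which KRAB members act was measured beside them. Of 27 genes on the co-repressor and heterochromatin list, 24 were tested, and 4 rose and 1 fell in chemotherapy against healthy muscle. That is 16.7% and 4.17%, beside 7.3% and 6.41% of all genes tested, with a median of 0.02. The list and these shares include the zinc finger genes Zkscan1 and Zkscan3, which were not called and count again among the Zscan and Zkscan genes below. The one that fell was Trim28 itself, with 72.7 ± 8.41 CPM in the chemotherapy samples, 82.9 ± 17.4 in the tumor samples and 108 ± 20.2 in the healthy samples, a log2 fold change of −0.58 ± 0.15 (edgeR adjusted p = 0.0302). Those that rose were Atrx, a chromatin remodeler (1.45 ± 0.41), Smarcad1, another remodeler (1.11 ± 0.28), the heterochromatin protein Cbx3 (0.85 ± 0.26) and Tasor, a subunit of the silencing complex HUSH (0.72 ± 0.21). Atrx averaged 95.1 ± 26.6 CPM in the chemotherapy samples, 71.4 ± 35.6 in the tumor samples and 35.5 ± 26.3 in the healthy samples, where library 2 had 79.4 CPM and the others 16.2 to 40.5. Setdb1, the histone methyltransferase recruited by Trim28, had −0.02 ± 0.12, at 25.1 ± 2.02 CPM in the chemotherapy samples, 24.7 ± 1.13 in the tumor samples and 25.4 ± 3.73 in the healthy samples.

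Zfp genes often lie side by side on a chromosome, and 144 of the members were found by symbol in the RefSeq gene table of GRCr8. There, 12 pairs of members were direct neighbors among protein-coding genes, and in 10 pairs the log2 fold changes of chemotherapy over healthy had the same sign. Zfp282, Zfp26 and Zfp426 recur among the pairs, and some of the values lie near 0. The share of same signs among random pairs of members was not computed, so the count is a description only. On chromosome 4, Zfp398 (−0.02), Zfp282 (−0.60) and Zfp212 (−0.42) stood in a row, as did Zfp777 (−0.60) and Zfp746 (−0.32). On chromosome 8 the row was Zfp560 (1.53), Zfp26 (0.09), Zfp426 (0.47) and Zfp266 (0.23), so the called gene stood next to one near 0. On chromosome 1, Zfp260 (1.18) lay beside Zfp566 (0.17). The pairs of opposite sign were Zfp692 (0.65) with Zfp672 (−0.27) and Zfp236 (0.08) with Zfp516 (−0.44). Chromosome 1 held 33 members with a median of −0.30, and chromosome 8 held 10 with a median of 0.53. Neighbors that are also close copies may share reads, and this was not tested.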

How the data were processed

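RNA was measured in gastrocnemius of 3 groups of rats. Per the labels' protocols, libraries were stranded and made from total RNA after ribosomal RNA removal. The authors deposited raw counts per gene for 17 libraries, with no normalisation. The submitters' processing notes name the aligners TopHat2 2.0.10 and Bowtie2, and also Trim Galore 0.4.1, CASAVA 1.9 and FastQC 0.11.4. Not given in the sources used here are the build, the annotation, the program that counted reads and its strand setting. Of low counts, 45.9% to 59.5% were even, so mates of a pair may have been counted separately.

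Entries without a gene name (388 of 32883, with 0.102% to 0.373% of counts) were left out. Chemotherapy libraries 11 and 12 gave a chi-square per degree of freedom of 2.03, against at least 5.16 for other pairs of that group. Their counts were summed and counted as 1 sample, called library 11, which left 16 samples. Genes kept by filterByExpr (minimum count 10) were tested in R 4.3.3 by edgeR 4.0.16, using TMM factors and a robust quasi-likelihood fit of all 16 samples (13 residual degrees of freedom), with Benjamini-Hochberg adjustment over 11856 genes. Each SE is the absolute log2 fold change divided by the root of F. Sums over marker genes and shares of counts were compared between groups with exact two-sided permutation tests. Alternatives used limma 3.58.1, DESeq2 1.42.0, sva 3.50.0, other scalings and filters, and fewer samples. The procedure was tested on simulated data.

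Members and lists were chosen with earlier results of these data known. Named were all called members, up to 15 in each direction, the 5 with the smallest p in each direction where few were called, the 5 most abundant and those on role lists. Zfp111 lay outside this rule and was named after its values were seen, as were Zfp384, Zfp672, Zfp667 and neighbors on the chromosomes. The list of nuclear-retained RNAs matched no name and was not analysed here.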

Additional observations from a re-analysis of the deposited data

Results flagged for a closer look

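Each named member was looked at in each group for a sample far from the rest, which is 186 groups over 62 members. In 7 of these groups a sample stood apart. That is no more than chance gives, at about 1 in 20 groups. Healthy library 2 had 13.5 CPM of Zfp606, against 2.87 to 5.29 in the other healthy samples, and 30.2 CPM of Zfp612, against 5.92 to 10.8. Both genes were called higher in chemotherapy samples, so this library narrows the difference. Healthy library 3 had 27.8 CPM of Zfp217, against 18.9 to 21.4. Tumor library 10 had 21.6 CPM of Zfp212, against 12.9 to 15 in the other tumor samples, and 12.1 CPM of Zfp771, against 4.92 to 6.99. Chemotherapy library 13 had 28.7 CPM of Zfp105, against 9.48 to 16 in the other chemotherapy samples, and chemotherapy library 14 had 75.5 CPM of Zfp207, against at most 58.8.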

How the results depend on the processing

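No paired analysis was possible because the labels give nothing that pairs a library of a group with one of another. In chemotherapy against healthy muscle, the 18 higher and 9 lower calls became 29 and 4 with total counts, 8 and 4 without the filter, 31 and 9 with limma-voom, 27 and 14 with the DESeq2 Wald test, 11 and 5 with 17 libraries, and 0 and 0 with the suffix as a term, with VM libraries only, with 1 surrogate variable or without healthy libraries 1, 3 and 4. Leaving out single samples gave 0 to 37 higher and 0 to 23 lower. Chemotherapy library 16 (7 and 3), chemotherapy library 17 (11 and 4) and healthy library 5 (24 and 14) also moved a count past 1.5 times. Over all genes tested, calls moved in the same settings: 12.3% higher and 9.47% lower with DESeq2, 13.3% and 7.46% with limma-voom, 2.47% and 2.14% without the filter and 5.26% and 5.21% with 17 libraries, beside 7.3% and 6.41%. With the suffix term or the VM libraries, healthy library 5 is the only VM sample of its group. The surrogate variable ran partly along the groups, as given above. The members' median of 0.13 was 0.26 with total counts, 0.02 with the surrogate variable and 0.04 without healthy libraries 1, 3 and 4. The tumor against healthy median of 0.15 was 0.26, 0.02 and 0.03 in those fits, 0.06 with the suffix term and 0.03 with VM libraries only, and leaving out single samples gave 0 to 12 higher and 0 to 2 lower calls. The calls of chemotherapy against tumor stayed at 0 in every fit listed. Signs turned only in members that were not called. The called ones had been picked on their differences in these same libraries, so their kept signs are not a separate check. In chemotherapy against healthy muscle, the surrogate variable gave Zfp106 −0.13, Zfp91 −0.11, Zfp622 −0.17, Zfp407 −0.11, Zfp644 −0.04, Zfp410 −0.05, Zfp462 −0.11, Zfp219 0.36, Zfp598 0.12, Zfp703 0.03, Zfp516 0.06, Zfp521 0.16, Zfp511 0.17, Zfp217 0.14, Zfp36 0.60 and Zfp592 0.01. Total counts gave Zfp219 0.03, Zfp521 0.07, Zfp217 0.07 and Zfp36 0.06, and the suffix term gave Zfp219 0.14, Zfp521 0.05 and Zfp36 0.16. VM libraries only gave Zfp219 0.27, Zfp503 −0.63, Zfp335 0.15, Zfp511 0.02 and Zfp217 0.09. Without healthy libraries 1, 3 and 4, Zfp219 had 0.40, Zfp703 0.00, Zfp521 0.03, Zfp511 0.15, Zfp217 0.10 and Zfp36 0.08, and in tumor against healthy muscle Zfp771 had 0.16 and Zfp213 0.05. With 17 libraries Zfp36 had 0.11. With single samples left out, Zfp219 ranged from −0.23 to 0.00, Zfp503 from −0.36 to 0.35, Zfp521 from −0.16 to 0.01, Zfp217 from −0.15 to 0.03, Zfp462 from −0.01 to 0.25 and Zfp36 from −0.43 to 0.07. The causes were not tested.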

Other observations

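The 87 Zfp entries under the count minimum also held called genes. Of these, 53 passed the filter on low counts, and 11 rose and 1 fell in chemotherapy against healthy muscle, or 20.8% and 1.89% beside 7.3% and 6.41% of all genes tested, with a median log2 fold change of 0.49. A gene of low count can pass the filter through the group where it is high, so this count does not describe all 87. Zfp329 averaged 5.65 ± 1.47 CPM in the chemotherapy samples and 1.76 ± 0.803 in the healthy samples, a log2 fold change of 1.66 (edgeR adjusted p = 0.0261). Zfp51 averaged 4.13 ± 0.783 CPM in the chemotherapy samples and 1.35 ± 0.81 in the healthy samples, a log2 fold change of 1.72 (edgeR adjusted p = 0.0308). Zfp708, on the list of genes that silence retroelements, averaged 2.44 ± 0.772 CPM in the chemotherapy samples and 0.995 ± 1.04 in the healthy samples (edgeR adjusted p = 0.0457). Zfp772 fell, with 1.5 ± 0.811 CPM in the chemotherapy samples and 3.38 ± 0.986 in the healthy samples, a log2 fold change of −1.08 (edgeR adjusted p = 0.0478).

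Other zinc finger families held 1 to 4 called genes each in the same comparison, or none, beside 7.3% of all genes called higher and 6.41% called lower. Of 32 Zbtb genes tested, Zbtb41 rose by 0.90 on the log2 scale, while Zbtb17 (−0.80), Zbtb39 (−0.51) and Zbtb47 (−0.52) fell (3.12% higher and 9.38% lower), and the median was 0.10. Of 16 Zc3h genes, which mostly bind RNA, Zc3h6 (0.95), Zc3h7a (0.69) and Zc3h8 (0.89) rose (18.8%) and the median was 0.27. Of 13 Zscan and Zkscan genes Zscan12 (0.97) rose (7.69%), of 17 Klf and Sp genes Sp3 (0.67) rose (5.88%), and none of 3 Znf genes was called. These calls come from the same fit as the member calls. They too were lost when any single one of healthy libraries 1, 3 and 4 or chemotherapy libraries 13, 14 and 15 was left out.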
